A study of Homo sapiens with 6 samples.

Results

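The E2F transcription factors, their DP partner and the RB-like proteins were followed through knockdown of DAB2IP in MCF10A cells. The group comprised 10 genes, E2F1, E2F2, E2F3, E2F4, E2F5, E2F7, E2F8, RBL1, RBL2 and TFDP1, each taken from the count table by an exact match of its gene name, out of 58735 genes listed. All 10 had enough counts to be tested, among 15430 genes that did. MCF10A is a nonmalignant human breast epithelial line, and RNA-Seq was performed on 3 siControl libraries (genotype WT, transfected with a nontargeting siRNA pool) and 3 siDAB2IP libraries (genotype DAB2IP knockdown, transfected with DAB2IP siRNA). Both groups were grown in the same medium with horse serum, insulin, EGF, cholera toxin and hydrocortisone, and RNA was collected 48 hours after transfection. The comparison asked which genes changed when DAB2IP, a RasGAP, was depleted. It rested on 1 cell line and a transient knockdown, and the labels did not say whether the replicates came from separate cultures, so the p-values measured only the spread between these libraries.

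E2F proteins bind the promoters of genes needed for DNA replication and division, most of them as dimers with a DP protein such as the product of TFDP1. The pocket proteins, RB and its relatives p107 (encoded by RBL1) and p130 (encoded by RBL2), bind E2Fs and hold those promoters silent until cyclin-dependent kinases phosphorylate them. E2F1, E2F2 and E2F3 are known as activators, E2F4 and E2F5 act mainly with p107 or p130 as repressors, and E2F7 and E2F8 are atypical repressors that bind DNA without a DP partner. In quiescent cells p130, E2F4 or E2F5, a DP protein and the MuvB core form the DREAM complex, which represses cell cycle genes.

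Several of these genes are themselves known E2F targets, so their promoters are shown for reference. RefSeq promoter entries (GRCh38.p14, 250 bases before to 50 bases after a start site) matched 8 of the 10 genes, all but E2F5 and E2F8, with 10 windows in all because E2F3 and RBL2 have 2 each. The windows were searched on both strands for 4 E2F octamers, TTTCCCGC, TTTCGCGC, TTTGCCGC and TTTGGCGC. The windows below belong to the 5 genes that passed the test for a change between the groups and to E2F3, whose groups overlapped. They are written 5′ to 3′ on the strand of the gene, with the E2F octamers in capitals, and for E2F3 the upstream of the 2 windows is given.
E2F1 (chr20:33686336-33686635, minus strand): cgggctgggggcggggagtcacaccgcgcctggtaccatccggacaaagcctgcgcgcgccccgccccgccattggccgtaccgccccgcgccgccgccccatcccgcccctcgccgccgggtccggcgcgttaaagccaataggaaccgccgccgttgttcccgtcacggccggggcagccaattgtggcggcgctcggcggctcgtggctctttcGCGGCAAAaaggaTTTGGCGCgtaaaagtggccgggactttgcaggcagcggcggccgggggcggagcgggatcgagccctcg
E2F2 (chr1:23531184-23531483, minus strand): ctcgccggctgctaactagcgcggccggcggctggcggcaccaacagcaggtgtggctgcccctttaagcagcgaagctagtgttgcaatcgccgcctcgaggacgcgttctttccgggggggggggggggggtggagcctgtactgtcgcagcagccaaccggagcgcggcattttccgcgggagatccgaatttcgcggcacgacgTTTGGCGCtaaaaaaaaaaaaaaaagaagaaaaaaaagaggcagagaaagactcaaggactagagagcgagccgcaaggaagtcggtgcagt
RBL1 (chr20:37095948-37096247, minus strand): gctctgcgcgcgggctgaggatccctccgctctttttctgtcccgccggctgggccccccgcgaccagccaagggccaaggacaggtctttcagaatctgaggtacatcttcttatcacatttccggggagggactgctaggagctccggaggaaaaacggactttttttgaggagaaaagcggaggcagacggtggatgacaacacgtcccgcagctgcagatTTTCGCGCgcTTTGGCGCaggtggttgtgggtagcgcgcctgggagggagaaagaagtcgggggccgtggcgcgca
TFDP1 (chr13:113584503-113584802, plus strand): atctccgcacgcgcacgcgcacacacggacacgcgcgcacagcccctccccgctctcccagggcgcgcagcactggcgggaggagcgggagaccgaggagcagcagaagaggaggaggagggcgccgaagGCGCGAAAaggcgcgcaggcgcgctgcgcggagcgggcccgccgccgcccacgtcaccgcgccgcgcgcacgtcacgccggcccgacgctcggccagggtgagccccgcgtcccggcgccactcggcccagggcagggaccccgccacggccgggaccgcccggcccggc
E2F3 (chr6:20401629-20401928, plus strand): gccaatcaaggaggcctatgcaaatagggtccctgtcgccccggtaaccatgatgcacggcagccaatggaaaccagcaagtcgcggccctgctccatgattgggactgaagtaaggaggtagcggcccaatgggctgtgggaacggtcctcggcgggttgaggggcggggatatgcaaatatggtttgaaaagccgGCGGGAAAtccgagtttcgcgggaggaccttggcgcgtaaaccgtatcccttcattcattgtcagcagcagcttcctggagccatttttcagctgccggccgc
E2F4 (chr16:67191905-67192204, plus strand): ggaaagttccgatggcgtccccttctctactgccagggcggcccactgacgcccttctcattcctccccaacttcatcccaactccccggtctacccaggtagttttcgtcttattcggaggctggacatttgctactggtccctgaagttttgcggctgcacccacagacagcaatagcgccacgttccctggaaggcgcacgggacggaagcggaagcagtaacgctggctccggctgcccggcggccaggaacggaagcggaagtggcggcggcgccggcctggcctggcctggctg

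An E2F octamer was found in 5 of the 10 windows (50%), against 3.31% of all 35116 promoter windows of the same length. E2F1 held TTTGCCGC on the opposite strand at base -33 from the start site and TTTGGCGC at base -20. RBL1 held TTTCGCGC at -26 and TTTGGCGC at -16. The matches did not overlap each other. E2F2 held 1 match (TTTGGCGC at -42), as did E2F3 (TTTCCCGC on the opposite strand at -53) and TFDP1 (TTTCGCGC on the opposite strand at -120). The windows of E2F4, E2F7 and RBL2 held none of these letters. A match is a description of the sequence and does not show that a factor was bound.

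The libraries held 16353783 to 21916062 counts, so that 3 counts corresponded to 0.139 to 0.187 CPM (counts relative to the TMM-scaled library size). DAB2IP itself was lower in all 3 siDAB2IP libraries (22.4, 25.6 and 27.5 CPM) than in all 3 siControl libraries (77.4, 94.2 and 103 CPM), a log2 fold change of -1.86 (SE 0.13, adjusted p = 9.71e-05 by edgeR, n = 3 and 3). All 10 mammary epithelial markers were detected, and their summed level was 8422 to 10445 CPM in siControl and 4904 to 5819 CPM in siDAB2IP libraries. The hormone receptor genes ESR1 and PGR were under 1 CPM throughout, with the 4 luminal markers summing to 20.7 to 27.2 and 22.3 to 27.3 CPM. Of 6 fibroblast markers COL3A1, PDGFRA and LUM were under 1 CPM, and the list summed to 163 to 293 and 146 to 205 CPM. Of 6 immune and endothelial markers PTPRC, CD3E (at 0) and CD68 were under 1 CPM, and the list summed to 11.4 to 16 and 7.65 to 11.4 CPM. The part of the epithelial marker shift in the results below was not tested.

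DAB2IP knockdown was accompanied by lower E2F1, E2F2, RBL1 and TFDP1 mRNA and by higher E2F4 mRNA. By the edgeR quasi-likelihood test with Benjamini-Hochberg adjustment over all genes tested, at an adjusted p under 0.05, 4 of the 10 genes fell, 1 rose and 5 did not pass. Of all 15430 genes, 7.65% fell, 6.55% rose and 14.2% passed in either direction. The rise of E2F4 was close to the threshold and passed in 1 of the 6 fits that left out 1 library. The median log2 fold change was -0.55 over the 10 genes and 0.01 over all genes tested. DESeq2 called the same numbers, 4 that fell and 1 that rose, with 9.76% and 7.86% of all genes (17.6% in either direction). The groups did not overlap for 7 genes, 6 lower and 1 higher in siDAB2IP, where the shares of all genes were 35.9%, 18.3% and 17.6%. In bulk RNA, fewer cells in a given cell cycle phase and less mRNA per cell cannot be told apart.

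**Figure D1:**
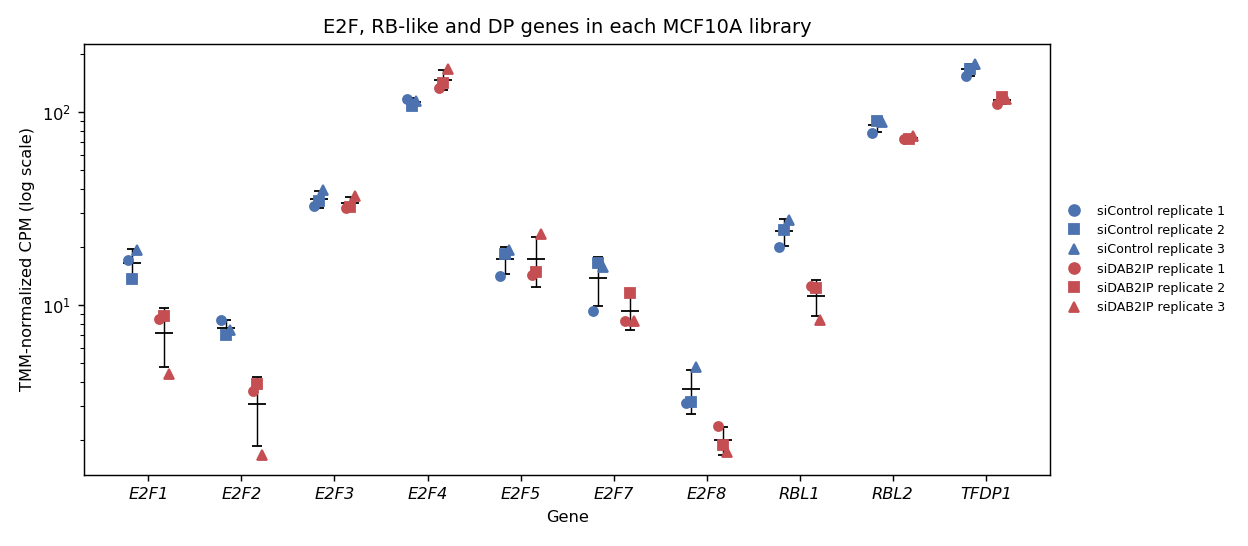
TMM-normalized CPM (y axis, log scale) of the 10 genes (x axis) in each of 3 siControl (blue) and 3 siDAB2IP (red) libraries, with bars for the group mean ± SD. E2F1, E2F2, RBL1 and TFDP1 lay lower in every siDAB2IP library than in any siControl library, E2F4 lay higher, and siDAB2IP replicate 3 was the lowest library for E2F1, E2F2 and RBL1 and the highest for E2F4.

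Among the activators, E2F1, which drives entry into S phase, measured 17.1, 13.6 and 19.3 CPM in siControl replicates 1, 2 and 3 and 8.46, 8.75 and 4.41 CPM in siDAB2IP replicates 1, 2 and 3. The highest siDAB2IP library was below the lowest siControl library. The fitted level fell by 56.6%, with means of 16.6 ± 2.85 and 7.21 ± 2.43 CPM (SD, n = 3 and 3). The log2 fold change was -1.20 (SE 0.25, adjusted p = 0.0128 by edgeR). It held in each of the 6 fits that left out 1 library, between -1.37 and -0.95. The gene lies at chr20:33675683-33686404 on the minus strand (hg38), and its window carried the 2 octamers shown above.

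E2F2, an activator closely related to E2F1, measured 8.41, 7.01 and 7.4 CPM in the siControl libraries and 3.61, 3.88 and 1.68 CPM in the siDAB2IP libraries. The groups were again separate, with siDAB2IP replicate 3 the lowest at 29 counts. The fitted level fell by 59.6%, and the log2 fold change of -1.31 was the most negative of the 10 genes (SE 0.28, adjusted p = 0.015 by edgeR). Without siControl replicate 1 the adjusted p by edgeR was 0.0537. The gene lies at chr1:23506430-23531220 on the minus strand.

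E2F3, the third activator, behaved differently from E2F1 and E2F2 in its values. It measured 32.5, 34.5 and 39.3 CPM in siControl and 31.9, 32.3 and 36.5 CPM in siDAB2IP libraries, and the groups overlapped. The log2 fold change was -0.08 (SE 0.12, adjusted p = 0.703 by edgeR), and leaving out single libraries gave -0.16 to -0.01. The difference between the fold changes of E2F3 and the other activators was not tested. The gene lies at chr6:20401906-20493715 on the plus strand, and the counts did not separate transcripts from its 2 start sites.

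Of the E2Fs that pair mainly with p107 and p130, E2F4 measured 116, 107 and 114 CPM in siControl and 133, 141 and 166 CPM in siDAB2IP libraries. Every siDAB2IP library was above every siControl library. The fitted level rose by 30.3%, with means of 113 ± 4.65 and 147 ± 17.5 CPM, a log2 fold change of 0.38 (SE 0.11, adjusted p = 0.0423 by edgeR). This call was close to the threshold. It was kept only without siDAB2IP replicate 1 (0.0472 by edgeR) and was lost without any other library, with adjusted p by edgeR of 0.111, 0.199 and 0.122 without siControl replicates 1, 2 and 3 and of 0.0692 and 0.0562 without siDAB2IP replicates 2 and 3. The log2 fold change in those fits stayed between 0.28 and 0.45. The gene lies at chr16:67192169-67198918 on the plus strand.

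E2F5, the close relative of E2F4, did not pass the test, and its direction was not determined. It measured 14.1, 18.4 and 19.3 CPM in siControl and 14.3, 14.8 and 23.2 CPM in siDAB2IP libraries, with a log2 fold change of 0.01 (SE 0.21, adjusted p = 0.98 by edgeR) that turned negative in several other fits. The lowest library was a siControl library and the highest a siDAB2IP library. E2F5 (chr8:85177225-85217158, plus strand) shares 969 exon bases with C8orf59 on the opposite strand, which was measured at 20 CPM in siControl and 21.5 CPM in siDAB2IP. The strand setting of the counting was not stated, so reads from the shared bases cannot be assigned.

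The atypical repressors E2F7 and E2F8, which are known to switch off E2F1 and other targets late in S phase, did not pass the test. E2F7 measured 9.28, 16.5 and 15.7 CPM in siControl and 8.24, 11.6 and 8.29 CPM in siDAB2IP libraries, and the groups overlapped because siControl replicate 1 was low. Its log2 fold change of -0.57 did not pass (SE 0.23, adjusted p = 0.135 by edgeR). It passed in 3 of the 15 alternative fits, and its adjusted p by DESeq2 was 0.0935. Those that passed included the replicate number as a block (adjusted p = 0.0493 by edgeR) and no filter on low counts (adjusted p = 0.0201 by edgeR). The other left out siControl replicate 1 (log2 fold change -0.80, adjusted p = 0.0432 by edgeR). Without the filter, adjusted p by edgeR moved far more than fold changes, from 0.0128 to 4.26e-09 for E2F1 and from 0.15 to 0.31 for RBL2. E2F7 lies at chr12:77021247-77065580 on the minus strand.

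E2F8 measured 3.12, 3.16 and 4.76 CPM in siControl and 2.37, 1.88 and 1.74 CPM in siDAB2IP libraries. These values rested on 30 to 81 counts per library, and the groups did not overlap. The log2 fold change of -0.87 did not pass (SE 0.27, adjusted p = 0.0558 by edgeR) but did with the replicate number as a block (adjusted p = 0.049 by edgeR). It also passed without a filter on low counts (adjusted p = 0.0253 by edgeR) and with at least 10 counts in every library (adjusted p = 0.0481 by edgeR). Including the block fit, E2F8 passed in 3 of the 13 alternative fits that gave it a value. It passed in 0 of the 6 fits without 1 library (adjusted p of 0.0723 to 0.189 by edgeR). The adjusted p by DESeq2 was 0.057. With the block, 6 of the 10 genes fell and 1 rose, where 11.4% and 9.59% of all genes did and 21% passed in either direction. E2F8 lies at chr11:19224063-19241620 on the minus strand.

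The 2 RB-like genes differed in their values. RBL1, whose product p107 is made mostly in cycling cells, measured 20.1, 24.6 and 27.6 CPM in siControl and 12.6, 12.2 and 8.41 CPM in siDAB2IP libraries. The groups were separate, and the fitted level fell by 54%, with means of 24.1 ± 3.79 and 11.1 ± 2.32 CPM. The log2 fold change was -1.12 (SE 0.19, adjusted p = 0.00514 by edgeR), between -1.26 and -0.96 in the fits without 1 library, all of which passed. RBL1 lies at chr20:36996349-37095995 on the minus strand.

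RBL2, whose product p130 is the pocket protein of quiescent cells, measured 77.9, 90.2 and 88.4 CPM in siControl and 72.8, 72.3 and 75.2 CPM in siDAB2IP libraries. The siDAB2IP libraries were all lower, by a small margin. The log2 fold change of -0.22 did not pass (SE 0.09, adjusted p = 0.15 by edgeR), with or without the replicate block. RBL2 (chr16:53433977-53491649, plus strand) shares 610 exon bases with AKTIP on the opposite strand, measured at 11.9 CPM in siControl and 14.1 CPM in siDAB2IP.

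TFDP1, the main DP partner, measured 154, 166 and 178 CPM in siControl and 110, 119 and 116 CPM in siDAB2IP libraries. Here the siDAB2IP libraries lay close together and well below the siControl libraries. The fitted level fell by 30.5%, with means of 166 ± 11.9 and 115 ± 4.43 CPM, a log2 fold change of -0.52 (SE 0.10, adjusted p = 0.00784 by edgeR). It was the gene of this group that passed in all 15 alternative fits. TFDP1 lies at chr13:113584721-113641470 on the plus strand.

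Taken gene by gene, the exact permutation test of mean CPM cannot go below p = 0.1 with 3 libraries against 3. That value was reached by the 7 genes without overlap, while the exact permutation p was 0.5 for E2F3, 0.9 for E2F5 and 0.2 for E2F7.

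**Figure D2:**
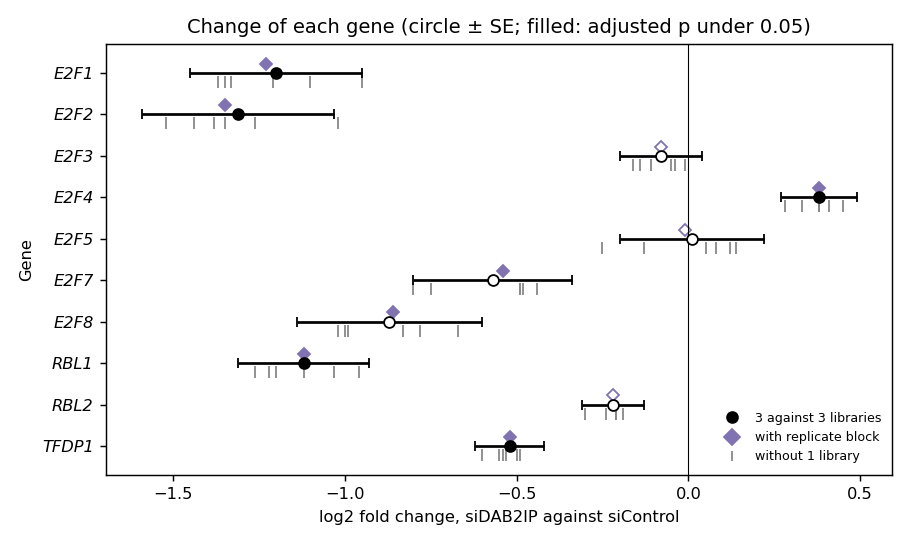
Log2 fold change of siDAB2IP against siControl (x axis) for the 10 genes (y axis), with circles ± SE for the fit of 3 against 3 libraries (filled where the adjusted p was under 0.05), diamonds for the fit with the replicate block and ticks for the fits without 1 library. The filled circles are E2F1 (-1.20), E2F2 (-1.31), RBL1 (-1.12) and TFDP1 (-0.52) on the left and E2F4 (0.38) on the right.

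Replicates with the same number were also compared as pairs. The difference of siDAB2IP from the same-numbered siControl library in log2 CPM was -1.0, -0.63 and -2.10 for E2F1 and -1.20, -0.84 and -2.07 for E2F2. For RBL1 it was -0.67, -1.0 and -1.70. Pair 3 showed the lowest value for each of these 3 genes. The differences for TFDP1 were closer to each other, at -0.48, -0.48 and -0.61. For E2F4 they were 0.19, 0.39 and 0.54.

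Levels of different genes were compared as FPKM, which corrects for gene length. In siControl libraries TFDP1 was the highest of the 10 genes at 43.9 ± 3.17 FPKM, followed by E2F4 at 31.2 ± 1.21 FPKM and RBL2 at 11.6 ± 0.913 FPKM (SD, n = 3). In siDAB2IP libraries E2F4 came first at 40.5 ± 4.79 FPKM and TFDP1 second at 30.4 ± 1.13 FPKM. The FPKM ranges of these 2 genes did not overlap in either group, so their order changed. E2F8 was the lowest gene in both groups, at 0.88 ± 0.223 FPKM and 0.477 ± 0.0797 FPKM. Among neighbours in the order, E2F3 and E2F1, E2F5 and E2F7, and E2F7 and E2F2 overlapped in siControl. In siDAB2IP the overlapping neighbours were E2F5 and E2F1, E2F1 and RBL1, RBL1 and E2F7, and E2F2 and E2F8.

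E2F4 supplied most of the E2F transcripts. Its share of the summed FPKM of the 7 E2F genes was 62.7%, 60.1% and 57.6% in siControl and 71.9%, 72.1% and 75.9% in siDAB2IP libraries. The share of E2F1 was 13.2%, 10.9% and 13.9% in siControl and 6.56%, 6.4% and 2.87% in siDAB2IP. Neither pair of groups overlapped. The mean share of E2F2 was 2.67% in siControl and 1.03% in siDAB2IP, and that of E2F3 was 13.1% and 11.7%. The summed level itself was 51.1, 49.6 and 55 FPKM in siControl and 51.1, 54 and 60.5 FPKM in siDAB2IP libraries, so the groups overlapped in the total.

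**Figure D3:**
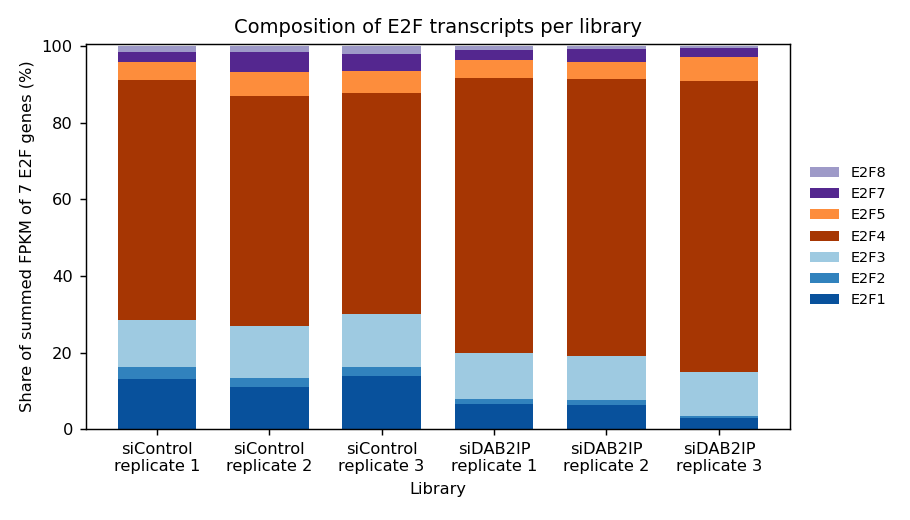
Share (%) of each of 7 E2F genes in their summed FPKM (y axis) in each of the 6 libraries (x axis). The E2F4 segment covers 57.6% to 62.7% in siControl and 71.9% to 75.9% in siDAB2IP libraries, and the E2F1 segment 10.9% to 13.9% and 2.87% to 6.56%.

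Ratios between these genes were computed per library and were not tested. The ratio of RBL2 to RBL1 was 3.16, 2.99 and 2.6 in siControl and 4.71, 4.8 and 7.28 in siDAB2IP libraries, 1.88-fold higher in siDAB2IP as the geometric mean. The ratio of the activators (E2F1, E2F2 and E2F3 summed) to E2F4 and E2F5 was 0.421, 0.405 and 0.473 in siControl and 0.259, 0.25 and 0.181 in siDAB2IP, without overlap. The atypical E2Fs did not shift against the activators beyond the spread. The ratio of E2F7 and E2F8 to the activators was 0.152, 0.252 and 0.219 in siControl and 0.184, 0.219 and 0.19 in siDAB2IP libraries, and the groups overlapped.

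**Figure D4:**
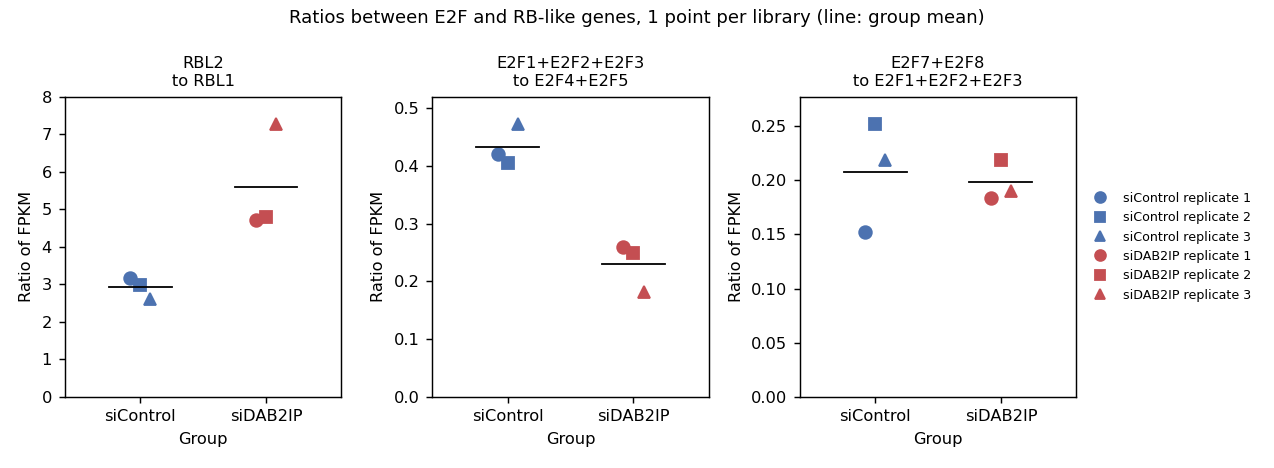
Ratios of FPKM (y axis, from 0) between genes or summed genes in each siControl (blue) and siDAB2IP (red) library, with lines at the group means. RBL2 to RBL1 averaged 2.92 and 5.6, the activators to E2F4 and E2F5 0.433 and 0.23, and E2F7 and E2F8 to the activators 0.208 and 0.198, where the points of the 2 groups overlap.

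Of the other genes of the family, RB1, which encodes the founding pocket protein, measured 45, 60.5 and 66.8 CPM in siControl and 24.5, 32.2 and 26.7 CPM in siDAB2IP libraries. The groups were separate, and RB1 fell with a log2 fold change of -1.05 (SE 0.16, adjusted p = 0.00374 by edgeR), also in each fit without 1 library. E2F6, a repressor that binds no pocket protein (log2 fold change 0.29, adjusted p = 0.136 by edgeR), and the DP gene TFDP2 (0.16, 0.447) did not pass. TFDP3 had no counts.

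The MuvB core and its MYB and FOXM1 partners turn from repression in DREAM to activation of mitotic genes. Of their 9 genes, with a median log2 fold change of -0.63, none rose (against 6.55% of all genes) and 3 fell (33.3%, against 7.65%). They were RBBP4, a histone-binding MuvB subunit (log2 fold change -0.57, adjusted p = 0.0044 by edgeR), MYBL2 (-1.53, 0.0223) and MYBL1 (-1.08, 0.0376). MYBL2, or B-MYB, measured 28.3, 27.3 and 33.1 CPM in siControl and 8.69, 17.4 and 4.46 CPM in siDAB2IP libraries, lowest in replicate 3. Of the 6 fits without 1 library, RBBP4 passed in all 6, MYBL1 in 3 (adjusted p up to 0.129 by edgeR) and MYBL2 in 2 (adjusted p up to 0.0665 by edgeR). FOXM1 (log2 fold change -1.15) and LIN54 (-0.63) did not pass by edgeR, with adjusted p of 0.0644 and 0.067, and did with the block, with 0.0268 and 0.0296. LIN9 (-0.66), LIN52 (-0.28), LIN37 (0.15) and DYRK1A (0.03), the kinase that promotes DREAM assembly, did not pass by edgeR, with or without the block. By DESeq2, LIN9 (adjusted p = 0.0411) and LIN54 (0.0436) passed and FOXM1 (0.134) did not. The count of falls was 5 with the block, where 11.4% of all genes fell, and 1 without siControl replicate 2 or 3. It was 5 without siDAB2IP replicate 2. Over all genes, falls numbered 459 and 650 without siControl replicates 2 and 3 and 1019 without siDAB2IP replicate 2, against 1181 with every library.

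The genes that set pocket protein phosphorylation moved in both directions. Of the 13 of 15 cyclin, kinase and inhibitor genes that could be tested, 3 rose and 3 fell (23.1% each). Of all genes, 6.55% rose and 7.65% fell. The median log2 fold change of the list was -0.10. CDKN1A, which encodes the CDK inhibitor p21, measured 149, 147 and 148 CPM in siControl and 369, 454 and 739 CPM in siDAB2IP libraries, a log2 fold change of 1.81 (adjusted p = 0.00135 by edgeR). CCND1, encoding cyclin D1, rose by 1.14 on the log2 scale (adjusted p = 0.00183 by edgeR), and CCND2 by 0.37 (adjusted p = 0.0439 by edgeR). CCND2 did not pass in any fit without 1 library. The kinase gene CDK4 fell (log2 fold change -0.96, adjusted p = 0.00124 by edgeR), as did CDK2 (-0.54, 0.0473) and the inhibitor gene CDKN2C (-1.22, 0.024). CDK2 passed in 1 of the 6 fits without 1 library and CDKN2C in 3.

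CCND3 (0.00), CDK6 (-0.10), CDKN1B (-0.10), CDKN2D (-0.13), CDKN1C (0.35) and the cyclin E genes CCNE1 (-0.42) and CCNE2 (-0.58), given as log2 fold changes, did not pass. CDKN2A and CDKN2B had too few counts to be tested. The falls numbered 1 without siControl replicate 2 or 3 or siDAB2IP replicate 1. Over all genes they numbered 459, 650 and 856 in these fits, against 1181 with every library.

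Of 35 G1/S genes known as E2F targets, 18 fell (51.4%, while 7.65% of all genes did) and none rose (6.55% of all genes did). The median log2 fold change of the 35 genes was -0.76. Among those with the smallest p were CHAF1A (-0.84), TYMS (-1.11), MCM7 (-0.43), RRM1 (-0.78), CDT1 (-1.25), PCNA (-0.58), MCM4 (-0.74), MCM3 (-0.76) and POLA1 (-0.75), with adjusted p of 0.00541 to 0.0228 by edgeR. They serve nucleotide synthesis (TYMS, RRM1), licensing and unwinding of origins (CDT1, MCM3, MCM4, MCM7), DNA synthesis (PCNA, POLA1) and chromatin assembly (CHAF1A). CCNE1 and CCNE2 belong to this list too. The median difference of the list from the siControl mean was -0.71, -0.40 and -1.24 (log2) in siDAB2IP replicates 1, 2 and 3, lowest in replicate 3. The number that fell moved with single libraries. It was 9, 3 and 4 without siControl replicates 1, 2 and 3, and 8, 25 and 22 without siDAB2IP replicates 1, 2 and 3. Falls over all genes moved too, being 752, 459 and 650 without siControl replicates 1, 2 and 3, against 1181 with every library. They were 856, 1019 and 1352 without siDAB2IP replicates 1, 2 and 3. These fits tested 15743 to 15858 genes. An E2F octamer was found in 20 of the 41 promoter windows of these genes (48.8%).

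Of 30 mitotic genes known as DREAM targets, 20 fell (66.7%, while 7.65% of all genes did) and none rose (6.55% of all genes did). The median log2 fold change was -1.14. All 30 fold changes were below 0. The 10 with the smallest p were CENPE (-1.48), AURKA (-0.87), TPX2 (-1.06), NUSAP1 (-1.26), KIF11 (-1.28), CDC25C (-1.60), CDC20 (-1.32), UBE2C (-1.42), CENPA (-1.10) and TOP2A (-1.43), with adjusted p of 0.0161 to 0.0304 by edgeR. Among them are spindle motors (CENPE, KIF11), a mitotic kinase and its activator (AURKA, TPX2), and genes of cyclin degradation (CDC20, UBE2C). The median of the list in siDAB2IP replicates 1, 2 and 3 was -1.09, -0.55 and -2.38 against the siControl mean. No gene of the list passed without siControl replicate 2 or 3, where 459 and 650 of all genes fell, against 1181 with every library. Without siControl replicate 1 or siDAB2IP replicate 1, 5 passed, where 752 and 856 of all genes fell. Without siDAB2IP replicates 2 and 3, 27 and 28 passed, where 1019 and 1352 of all genes fell. DESeq2 called 10, where 9.76% of all genes fell, and the fit with the block 28, where 11.4% did. The hexamers TTTGAA or TTCGAA of the CHR element were searched on both strands. They were found in 20 of 31 promoter windows of the list (64.5%), against 16.4% of all windows and 7.32% of the G1/S windows. The letters CCAAT were found in 87.1% of the list, against 34.6% of all windows and 68.3% of the G1/S windows. These shares describe the promoter sequence and do not depend on the knockdown.

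**Figure D5:**
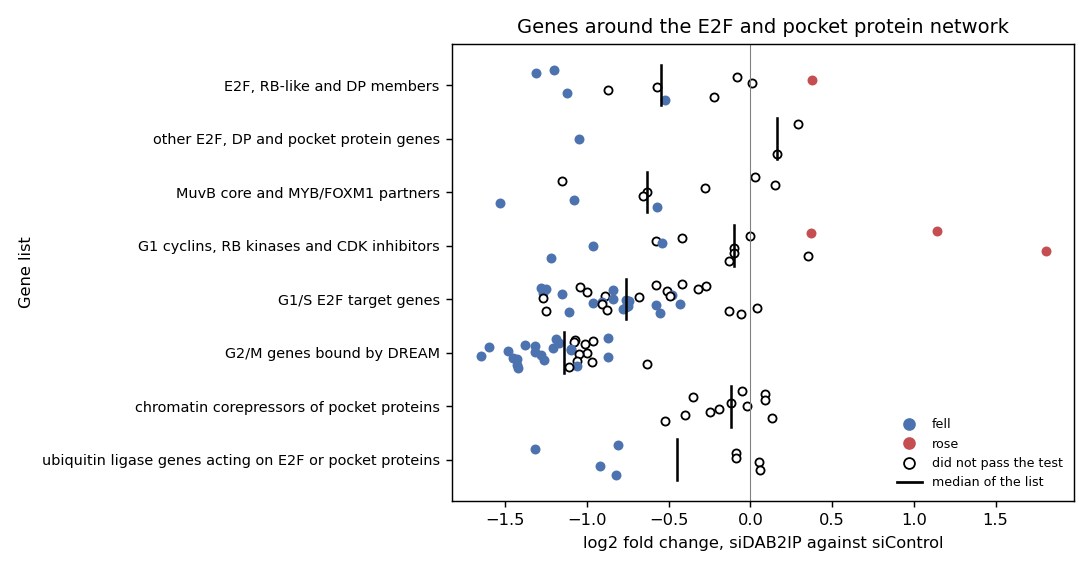
Log2 fold change of siDAB2IP against siControl (x axis) for each tested gene of the E2F, RB-like and DP group and of each gene list (y axis), with blue points for genes that fell, red points for genes that rose, open points for those that did not pass and lines at the list medians. The G1/S list has a median of -0.76 and the mitotic list one of -1.14, and the E2F, RB-like and DP group one of -0.55.

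None of the 11 chromatin corepressors that pocket proteins recruit passed by edgeR, where 14.2% of all genes did. Their median log2 fold change was -0.12. SIN3A had the smallest p (log2 fold change -0.40, adjusted p = 0.0806 by edgeR) and fell with the block (0.0263). The others were DNMT1 (-0.35), RBBP8 (-0.25), SUV39H1 (-0.52), RBBP7 (-0.19), HDAC2 (-0.12), ARID4A (-0.05), KDM5A (-0.02), HDAC1 (0.09), CTBP1 (0.09) and SIN3B (0.13).

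Of 8 genes of ubiquitin ligases and their regulators that act on E2Fs or pocket proteins, none rose, against 6.55% of all genes. The median log2 fold change was -0.45. Of the 8 genes, 4 fell (50%, against 7.65% of all genes). They were SKP2 (log2 fold change -0.82, adjusted p = 0.00433 by edgeR), FBXO5 (-0.92, 0.0171), CCNF (-0.81, 0.0219) and CDC20, which is also on the mitotic list. SKP2, which recruits p27 and p130 for degradation, measured 31.3, 37.8 and 42.2 CPM in siControl and 21.1, 21.4 and 20.4 CPM in siDAB2IP libraries. It passed in each fit without 1 library and was the only gene of the list to do so. The list's falls numbered 1 without siControl replicate 2 or 3 and 2 without siDAB2IP replicate 1. In these fits 459, 650 and 856 of all genes fell, against 1181 with every library. CUL4A (-0.09), FZR1 (0.06), CKS1B (-0.09) and DDB1 (0.05) did not pass.

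Genes with the most similar pattern over the 6 libraries were found by Pearson correlation of log2 CPM among 14065 genes. The group difference enters these values, which are a description. The nearest genes were HPF1 (0.998) and KRT14 (0.995) for E2F1, EGR1 (0.999) and ERI1 (0.999) for E2F2, and LDLRAD3 (0.998) and AQR (0.997) for RBL1. They were SFRP1 (1.000) and ALG9 (0.996) for TFDP1 and PITPNM3 (0.997) and PLXNB3 (0.996) for E2F4.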

How the data were processed

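RNA-Seq was performed on 6 MCF10A libraries, 3 per group, with groups and replicate numbers taken from the sample labels. The authors deposited counts per gene and library as whole numbers without normalization. The FPKM values deposited by the authors were recomputed from these counts and the gene lengths with scaled totals of 98.86% to 104.7% of each library total. The submitters' processing notes name STAR 2.6.1d, featureCounts 1.5.0-p3, DESeq2 1.20.0, edgeR 3.24.3 and hg38, and the strand setting was not stated. All 58735 genes had the positions of GENCODE release 29. Libraries held 16353783 to 21916062 counts, and limits from 3 counts cover counting error only.

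Counts were filtered by group, normalized by TMM and tested with edgeR 4.0.16 (quasi-likelihood, R 4.3.3, group as the only term), with Benjamini-Hochberg adjustment over 15430 genes and a threshold of 0.05. CPM values are TMM-normalized. The common biological coefficient of variation was 14.8%. On simulated counts for 15178 genes, edgeR called 62 of 100 genes changed by a log2 fold change of 1 in size. It called 3 of 100 changed by 0.5, with 5 false calls. The changed genes were a smaller part of all genes there than the 14.2% called in these data. The rates therefore cannot be carried over to these data. Ratios and shares used FPKM and were not tested, and exact permutation tests were two-sided. Alternatives were DESeq2 1.42.0, other size factors, other filters (none, or at least 10 counts in every library), the replicate block, limma 3.58.1 on log2(FPKM + 1) or log2(FPKM + 0.1) with a mean of at least 1 FPKM or without that filter, an adjusted p under 0.01, and leaving out each library. Same-numbered libraries deviated together (correlations of deviations from the group means over genes of 0.265, 0.155 and 0.255, against -0.278 to 0.021 for other pairs). Deviations from a group mean cancel within the group, so the correlations of other pairs are not independent of these. Because of the same-numbered values, equal numbers were taken to mark pairs. These entered the fit with the replicate block and the differences per pair, and no other fit. Members and gene lists were chosen with earlier results of these data known. The genes named were DAB2IP, all members, genes that passed in a list (up to 10, by smallest p), every gene of lists of 15 or fewer, and the 2 nearest genes of each called member with a mean of at least 1 CPM. One gene that this rule names is not reported here.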

Additional observations from a re-analysis of the deposited data

How the results depend on the processing

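The falls of E2F1, RBL1 and TFDP1 and the rise of E2F4 kept their direction in all 15 alternative fits, and E2F2 in all 13 that gave it a value. TFDP1 passed in 15 of them, E2F1 and RBL1 in 14, E2F2 in 11 and E2F4 in 7. The number of genes called over all genes, 2192, was 1417 by limma on log2(FPKM + 0.1), 378 by limma without a filter and 622 at an adjusted p under 0.01, and 723 to 2524 when 1 library was left out, lowest without siControl replicate 2. Among the 10 genes, falls numbered 1 by limma without a filter and 2 at an adjusted p under 0.01. Rises numbered 0 in each limma fit and at an adjusted p under 0.01, and 0 to 1 when 1 library was left out. Over all genes, limma without a filter gave 202 falls and 176 rises among 29567. On log2(FPKM + 1) limma gave 817 falls and 684 rises among 12412 genes, and on log2(FPKM + 0.1) 758 and 659. The fits without 1 library gave 459 to 1352 falls and 264 to 1172 rises over 15743 to 15858 genes. The 622 genes at an adjusted p under 0.01 were among 15430. By limma without a filter, falls numbered 0 for the other family genes, 1 for the MuvB list, 1 for the cyclin, kinase and inhibitor list, 1 for the G1/S list, 0 for the mitotic list and 1 for the ubiquitin ligase list. At an adjusted p under 0.01 they numbered 1 for the MuvB, 1 for the cyclin, 3 for the G1/S, 0 for the mitotic and 1 for the ubiquitin ligase list. By limma on log2(FPKM + 0.1) they numbered 10 for the G1/S and 3 for the mitotic list, and on log2(FPKM + 1) 8 for the mitotic list. DESeq2 gave 5 for the MuvB and 10 for the mitotic list, where 9.76% of all genes fell. Without a filter on low counts, falls numbered 6 for the MuvB list and 2 for the corepressors, against 1692 among all 29567 genes of that fit. With the replicate block, where 11.4% of all genes fell, falls numbered 5 for the MuvB list and 1 for the corepressors. They numbered 28 for the mitotic and 26 for the G1/S list. Apart from the calls of E2F7, E2F8, FOXM1, LIN54 and SIN3A, the block changed no other call named in the report. Leaving out 1 library gave 1 to 5 falls for the MuvB list, 1 to 3 for the cyclin list, 3 to 25 for the G1/S list, 0 to 28 for the mitotic list and 1 to 4 for the ubiquitin ligase list. The cause of these shifts was not tested. E2F5 turned negative without a filter on low counts (-0.0026), with the replicate block (-0.01), in the 3 limma fits (-0.01 each), when siControl replicate 1 (-0.13) or siDAB2IP replicate 3 (-0.25) was left out, and ranged from -0.25 to 0.14 when 1 library was left out. The log2 difference of the ratio of E2F7 and E2F8 to the activators, -0.04, ranged from -0.25 to 0.11 when 1 library was left out, being 0.11 without siControl replicate 2 and 0.01 without siControl replicate 3 or siDAB2IP replicate 1. Low counts of E2F2 and E2F8, at 29 to 151 and 30 to 81 per library, limited their precision.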
